A study of Bos taurus with 12 samples.

Results

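Transcript abundance of 8 keratins was described in bovine endometrium. The members were chosen by name, with earlier results of these data known. They were the keratins of basal and squamous epithelium, KRT5, KRT14, KRT15 and KRT17, and those of simple epithelium, KRT7, KRT8, KRT18 and KRT19. All 8 genes were measured, by 10 of the 24016 probe sets tested (6 basal and 4 simple). The endometrium came from Simmental heifers, before the transfer of an embryo produced in vivo, and was labelled receptive or non receptive by whether a pregnancy followed. The estrous cycle was at day 3 in some pools and at day 7 in others, so that receptivity and day gave 4 groups. Each group held 3 RNA pools with 1 array per pool, 12 arrays in all. The labels name no treatment and do not say how many animals a pool holds or whether pools came from separate animals, so the p-values reflect how much pools varied, which may be technical.

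Keratins are the intermediate filament proteins of epithelial cells. A type I keratin pairs with a type II keratin to build a filament. The simple epithelium that lines the uterine lumen and glands is built on KRT8 with KRT18, to which KRT7 and KRT19 add. KRT5 with KRT14 marks the basal layer of stratified and squamous epithelium, KRT15 is a further type I keratin of basal cells, and KRT17 is a type I keratin known for its induction in stressed or regenerating epithelium.

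Values are log2 signals as deposited, so a difference of 1 is a doubling of signal. Array medians lay between 6.64 and 6.76. Of the 8 measured markers of endometrium, MSX1 lay between 11.67 and 12.64 over the pools, MUC1 between 11.07 and 12.03, EMX2 between 9.35 and 10.16 and the oxytocin receptor OXTR between 8.62 and 11.23. The steroid receptors ESR1 and PGR ranged from 2.85 to 4.45 and from 3.21 to 5.28, HOXA10 ranged from 3.12 to 6.04, and the uterine serpin SERPINA14 was listed at 0 in 2 pools and reached 11.64. The actin control probe sets, whose distance between 3' and 5' end reflects RNA length, lay further apart in receptive pools, with mean distances of 0.63 (non-receptive) and 1.99 (receptive) on day 3 and of 0.37 and 1.01 on day 7. Receptive day 7 pool 1 stood apart in several keratins. Among the 6 pools of day 7 it had the lowest signal for 6 of the 10 keratin probe sets and for 22.5% of all probe sets, where the corresponding share in the other pools of day 7 was between 12.7% and 16.8%. It had the highest signal for 12.5% of all probe sets. Non-receptive day 7 pool 2 had it for 26.5%, the largest such share, so other pools also stood apart over all probe sets. Results that rest on this pool are given with and without it.

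From day 3 to day 7 the basal and squamous keratins rose, while no simple keratin passed the test. Averaged over both receptivity groups, KRT5 was 10.7-fold higher on day 7, KRT17 5.16-fold, KRT15 4.66-fold and KRT14 1.67-fold. In counts, 5 of 6 basal probe sets passed as higher (limma, with the Benjamini-Hochberg adjusted p below 0.05). They covered 4 of 4 basal genes, with KRT15 taken by its platform name, which is not settled. Of the simple probe sets, 0 of 4 passed in either direction. In the same comparison 14.2% of all probe sets passed, 4.76% as higher and 9.44% as lower. The median log2 change was 2.29 for the basal genes, 0.25 for the simple genes and -0.05 for all probe sets. Of all called probe sets, 33.5% were higher as deposited, 44.1% after quantile normalization and 50.6% after median centring of the arrays, and 5 of 6 basal probe sets passed under each. Without receptive day 7 pool 1 the count was also 5, with averaged log2 changes of 0.80 for KRT14, 2.30 for KRT17 and 2.61 for the second KRT15 probe set. The mean actin distance was larger on day 3 than on day 7 in both receptivity groups, and its part in the day changes was not tested. The labels do not say how the tissue was taken. In RNA of a tissue sample, more cells of a type and more RNA per cell cannot be told apart.

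KRT5, the type II keratin of the basal layer, had signals of 5.86, 7.00 and 5.65 in non-receptive day 3 and of 5.27, 4.89 and 5.64 in receptive day 3 (probe set Bt.13162.1.S1_at). On day 7 the signals were 9.76, 10.09 and 10.28 in non-receptive and 6.15, 10.06 and 8.5 in receptive endometrium. Pool 1 of receptive day 7 thus lay among the values of day 3, below pool 2 of non-receptive day 3, and the other 5 pools of day 7 lay above all pools of day 3. The log2 change from day 3 to day 7 was 3.42 ± 0.56 (SE, adjusted p = 0.00582, limma), and 3.94 without that pool. The order of the group means was receptive day 3 (5.27), non-receptive day 3 (6.17), then receptive day 7 (8.24) and last non-receptive day 7 (10.04), with standard deviations of 0.38, 0.73, 1.97 and 0.26 (n = 3 pools each). Neither pair of groups of the same day passed as different.

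A second probe set of KRT5 (Bt.9044.1.S1_at) did not follow this pattern. It lay between 6.28 and 6.98 on day 3 and between 6.04 and 6.91 on day 7, and the log2 change was -0.05 (95% interval -0.46 to 0.36, adjusted p = 0.888). The probe sets of KRT5 therefore disagreed, and the increase is given for the first of them.

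KRT14, the type I partner of KRT5, changed by less. Its signals were 5.54, 5.23 and 5.78 in non-receptive day 3 and 5.58, 5.57 and 5.28 in receptive day 3. They were 6.71, 6.02 and 6.33 in non-receptive day 7 and 5.87, 6 and 6.49 in receptive day 7. All 6 pools of day 7 lay above all 6 pools of day 3, a separation without overlap that 2.55% of all probe sets showed in this direction. The log2 change was 0.74 ± 0.16 (SE, adjusted p = 0.0158, limma). The order of the group means was receptive day 3 (5.48), non-receptive day 3 (5.52), then receptive day 7 (6.12) and last non-receptive day 7 (6.35), and neither pair of groups of the same day passed as different.

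KRT15 was read by 2 probe sets, and both rose. The first (Bt.7346.1.S1_at) had signals of 7.12, 7.57 and 7.10 in non-receptive day 3, 7.23, 7.05 and 6.96 in receptive day 3, 9.60, 10.56 and 10.05 in non-receptive day 7 and 7.00, 9.82 and 9.32 in receptive day 7. As for KRT5, pool 1 of receptive day 7 was at the level of day 3 and the other 5 pools of day 7 were above every pool of day 3. The log2 change was 2.22 ± 0.42 (SE, adjusted p = 0.00977, limma), and 2.65 without that pool.

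The other KRT15 probe set (Bt.22801.1.S1_at) had signals of 2.34, 3.00 and 3.06 in non-receptive day 3, 4.58, 2.86 and 4.11 in receptive day 3, 5.81, 7.05 and 6.34 in non-receptive day 7 and 4.54, 5.87 and 5.08 in receptive day 7. The days overlapped by the narrow margin between pool 1 of receptive day 3 and pool 1 of receptive day 7. Its log2 change was 2.46 ± 0.35 (SE, adjusted p = 0.00369, limma). No probe set carried the symbol of KRT13, the keratin of non-cornified squamous epithelium. Its gene lies next to KRT15 in the RefSeq annotation of cattle. The name KRT15 rests on the platform annotation. A published companion study of endometrium before transfer of embryos produced in vitro, on the same array type, names both KRT15 probe sets KRT13. Which of both genes these probe sets read is not settled here. All counts, medians and pool averages of the basal keratins include KRT15 under its platform name. If its probe sets read KRT13, those values include a squamous keratin that was not among the members chosen.

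KRT17 passed in each receptivity group and averaged over both. Signals were 5.70, 4.91 and 5.42 in non-receptive day 3 and 5.96, 4.36 and 5.46 in receptive day 3, against 7.62, 7.19 and 8.10 in non-receptive day 7 and 7.96, 7.86 and 7.28 in receptive day 7. The days did not overlap, and pool 1 of receptive day 7, low in KRT5 and KRT15, had the second highest KRT17 signal of all pools. The log2 change was 2.37 ± 0.29 (SE, adjusted p = 0.00224, limma).

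**Figure D1:**
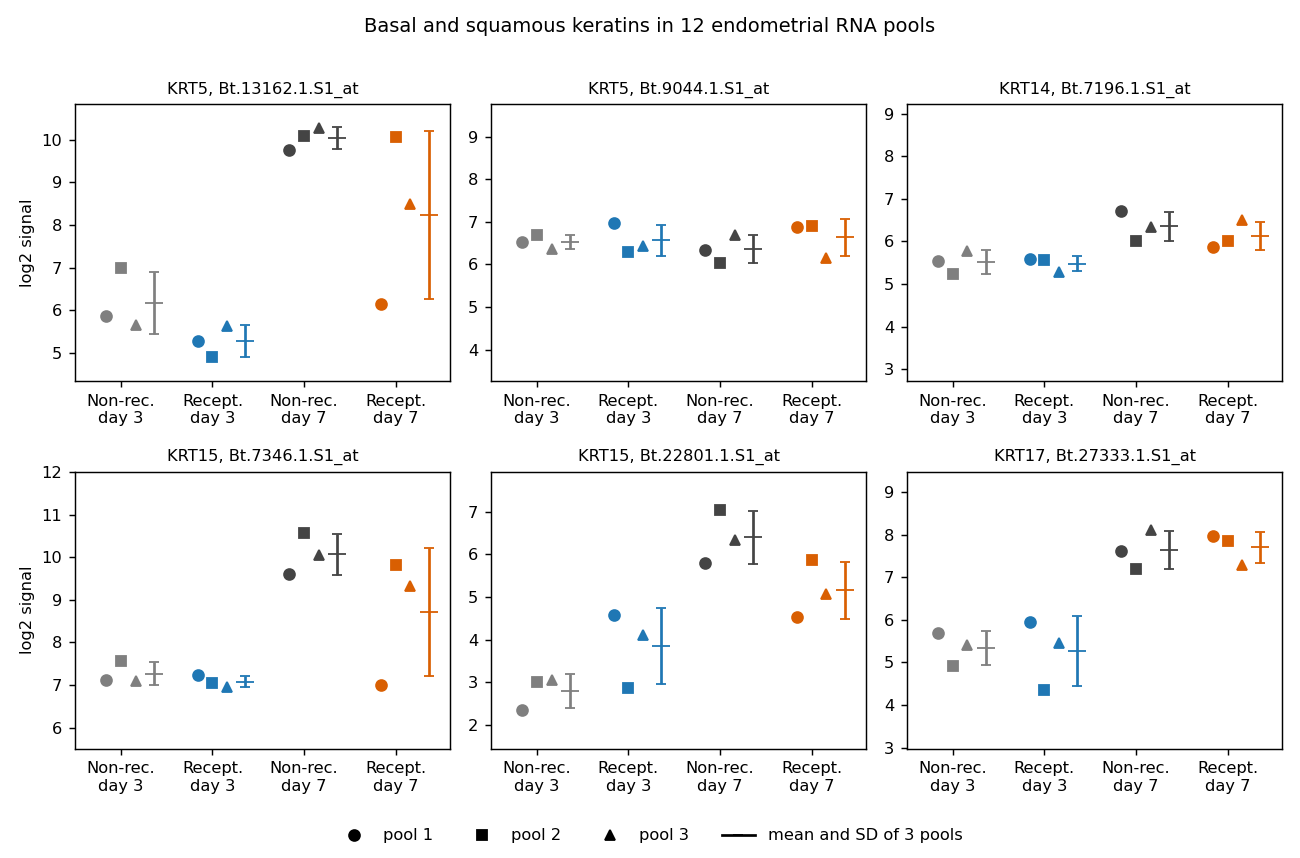
Log2 signal (vertical axis, every panel spanning the same number of log2 units) of the 6 probe sets of KRT5, KRT14, KRT15 and KRT17 in the 4 groups, with 1 symbol per RNA pool and bars for the mean and SD of 3 pools. Pool 1 of receptive day 7 lies at the level of day 3 for KRT5 (6.15) and KRT15 (7.00) and with the other pools of day 7 for KRT17 (7.96), and the second KRT5 probe set is level throughout.

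The simple keratins ranged over at most 1.33 log2 units across the 12 pools. KRT7, a type II keratin of glandular and ductal epithelium, had signals of 10.36, 10.07 and 10.12 in non-receptive day 3, 10.30, 9.73 and 10.12 in receptive day 3, 10.15, 10.56 and 10.50 in non-receptive day 7 and 10.38, 10.90 and 10.60 in receptive day 7. The days overlapped. Its log2 change was 0.40 ± 0.14 (SE, adjusted p = 0.0775, limma), the smallest adjusted p of the simple keratins.

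KRT18, the type I keratin that pairs with KRT8, had signals of 11.37, 11.33 and 11.45 in non-receptive day 3, 10.82, 11.34 and 11.22 in receptive day 3, 11.21, 11.51 and 11.89 in non-receptive day 7 and 11.30, 12.15 and 11.73 in receptive day 7. Values of the days overlapped in both receptivity groups. The log2 change was 0.38 ± 0.17 (SE, adjusted p = 0.161).

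KRT19, the smallest type I keratin, had signals of 12.66, 12.52 and 12.65 in non-receptive day 3, 12.40, 12.38 and 12.69 in receptive day 3, 12.24, 12.53 and 12.62 in non-receptive day 7 and 12.21, 12.95 and 12.58 in receptive day 7. No group stood apart. The log2 change was -0.03 (95% interval -0.32 to 0.27, adjusted p = 0.912).

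KRT8, the type II keratin of simple epithelium, was named on a single probe set (Bt.28009.1.A1_at), with signals of 6.22, 6.30 and 6.34 in non-receptive day 3, 6.15, 6.11 and 6.19 in receptive day 3, 6.37, 6.46 and 6.25 in non-receptive day 7 and 5.89, 6.36 and 6.68 in receptive day 7. The log2 change was 0.12 (95% interval -0.15 to 0.39, adjusted p = 0.559). A probe set whose name shares its stem (Bt.28009.1.S1_at) carried no gene symbol and was not counted as KRT8. It lay between 10.33 and 10.93 over all pools, with a log2 change of -0.14 (adjusted p = 0.415). Both were level between the days within the error of the fit.

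**Figure D2:**
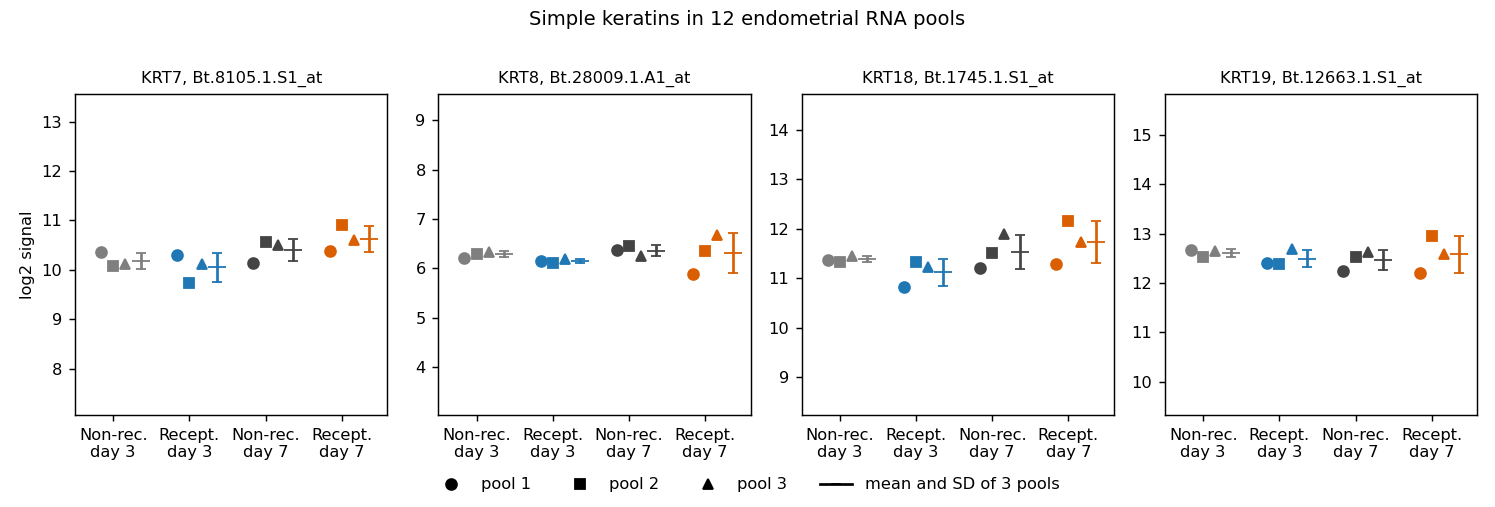
Log2 signal (vertical axis, spanning the same number of log2 units as the plot of the basal keratins) of KRT7, KRT8, KRT18 and KRT19 in the 4 groups, with 1 symbol per RNA pool and bars for the mean and SD of 3 pools. Values of day 3 and day 7 overlap for all 4 probe sets, and the widest range over the 12 pools is 1.33, for KRT18.

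The contrast between both kinds of keratin was then tested within each array, with the mean of the 4 simple keratins as reference. That mean was 10.04 on day 3 and 10.25 on day 7. Relative to it, KRT5 rose by 3.21 ± 0.47 on the log2 scale (SE, adjusted p = 0.00361, limma) and KRT17 by 2.15 ± 0.30 (adjusted p = 0.00294). Both KRT15 probe sets rose, by 2.0 (adjusted p = 0.00542) and 2.24 (adjusted p = 0.00256). The relative change of KRT14 was 0.52 and did not pass (adjusted p = 0.0845), and that of the second KRT5 probe set was -0.27 (adjusted p = 0.409). Thus 4 of 6 basal probe sets passed as higher, against 1.28% of all probe sets, while 16.9% passed as lower. Without receptive day 7 pool 1 the count was also 4.

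Averaged over the 4 basal genes, the deviation of a pool from the mean of the 12 pools was between -1.55 and -0.84 on day 3. On day 7 it was between 0.88 and 1.67 in 5 pools and -0.27 in receptive day 7 pool 1, so that this pool lay between the days. The same measure of the simple keratins was between -0.25 and 0.01 on day 3 and between -0.20 and 0.45 on day 7, with the days overlapping.

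**Figure D3:**
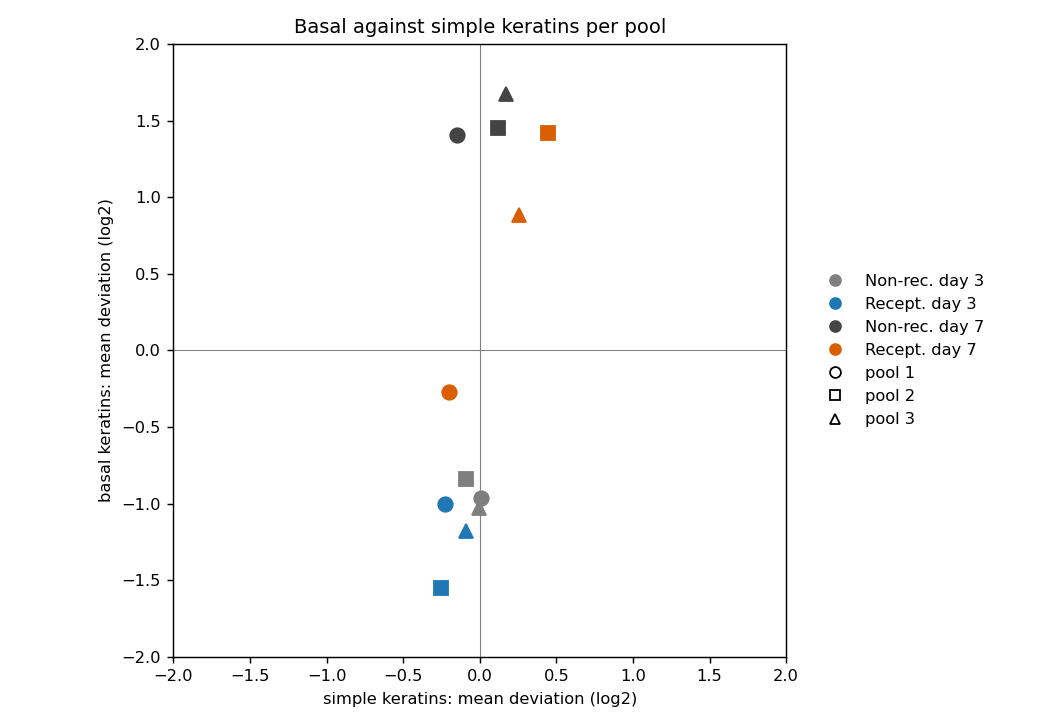
Mean log2 deviation from the average of the 12 pools over the 4 basal genes (vertical axis) against that over the 4 simple genes (horizontal axis, same scale), with 1 symbol per pool. Pools of day 3 lie at the bottom, at or below -0.84 on the vertical axis, 5 pools of day 7 at the top, at or above 0.88, and receptive day 7 pool 1 between them at -0.27.

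Taken by receptivity group, with 3 pools a side, the calls were fewer. The estimated increases differed in size, but no such difference passed when tested as an interaction of day and receptivity. In non-receptive endometrium 4 of 6 basal probe sets passed as higher (0.82% of all probe sets did). KRT5 rose by 3.87 (adjusted p = 0.0393), both KRT15 probe sets by 2.81 (adjusted p = 0.0435) and 3.6 (adjusted p = 0.0125) and KRT17 by 2.29 (adjusted p = 0.0258), all by limma. The change of KRT14 was 0.84 (adjusted p = 0.081). In all 5 of these probe sets the pools of day 7 lay above those of day 3 without overlap, as 10.3% of all probe sets did. The count of calls depended on single pools. Among non-receptive pools, leaving out pool 1 of day 3 gave 0 calls, leaving out pool 2 of day 3 or pool 1 or 3 of day 7 gave 1, and leaving out pool 3 of day 3 or pool 2 of day 7 gave 2. Among receptive pools, which enter through the shared estimate of the spread, leaving out any pool of day 3 or pool 3 of day 7 gave 2.

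In receptive endometrium KRT17 alone passed, with a log2 change of 2.44 ± 0.41 (SE, adjusted p = 0.0282, limma), where 0.595% of all probe sets passed as higher. The change of KRT5 was 2.97 (adjusted p = 0.0795), those of KRT15 were 1.63 (adjusted p = 0.165) and 1.31 (adjusted p = 0.178) and that of KRT14 was 0.64 (adjusted p = 0.15). Without receptive day 7 pool 1 the count was 2, with KRT5 at 4.01 (adjusted p = 0.0271) and KRT15 (Bt.7346.1.S1_at) at 2.49 (adjusted p = 0.0225) passing and KRT17 at 2.31 not passing (adjusted p = 0.0707). It was 0 without receptive day 3 pool 1 or 3, without receptive day 7 pool 2 or 3, and in a fit of the receptive groups alone. Of the simple keratins, KRT7 separated the days without overlap in receptive pools, as did KRT5, KRT14 and KRT17 and 8.72% of all probe sets in this direction, but did not pass, with a log2 change of 0.58 (adjusted p = 0.134), and KRT18 had a change of 0.60 (adjusted p = 0.196).

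The difference between both day changes was tested itself, as the interaction of day and receptivity. By limma 0 of 10 keratin probe sets passed, as did 0% of all probe sets, and 1 had an unadjusted p under 0.05, as did 813 of all probe sets. That was KRT15 (Bt.22801.1.S1_at), whose increase was smaller by 2.29 log2 units in receptive endometrium (95% interval -3.86 to -0.72, unadjusted p = 0.0088, adjusted p = 0.999). For KRT5 the interval of the difference ran from -3.41 to 1.60 and for KRT17 from -1.13 to 1.43, so that these pools did not settle whether the increases were of the same size. The difference was -0.90 for KRT5 with all pools and 0.14 without receptive day 7 pool 1. Without that pool it was 0.02 for KRT17 and -1.975 for KRT15 (Bt.22801.1.S1_at).

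**Figure D4:**
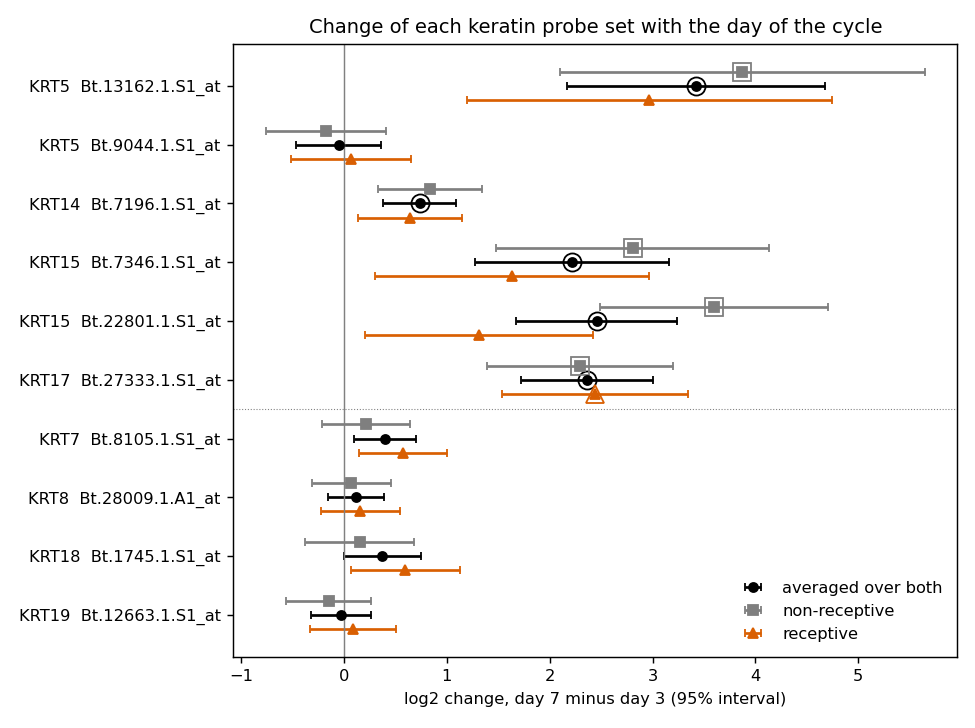
Log2 change from day 3 to day 7 (horizontal axis, with 95% intervals) of the 10 keratin probe sets, averaged over both receptivity groups, in non-receptive and in receptive endometrium. Open outlines mark changes with an adjusted p under 0.05, the basal keratins stand above the dotted line, and the averaged changes run from 0.74 to 3.42 in the 5 called probe sets and from -0.03 to 0.40 in the simple keratins.

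Receptive and non-receptive endometrium of the same day were compared to ask whether keratin transcripts differed by pregnancy outcome. By limma 0 of 10 keratin probe sets passed on day 3, on day 7 or averaged over both days, where 3, 0 and 1 of all probe sets passed, 0.0125%, 0% and 0.00416%. Unadjusted p-values under 0.05 were found for 0, 3 and 1 keratin probe sets and for 1264, 1396 and 1773 of all probe sets. Adding a variance trend or array weights to the fit also gave counts of 0.

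On day 7 the 3 probe sets with an unadjusted p under 0.05 were those of KRT5 and KRT15 described above, lower in receptive endometrium. KRT5 had means of 8.24 ± 1.97 in receptive and 10.04 ± 0.26 in non-receptive pools (SD, n = 3), a log2 difference of -1.81 (95% interval -3.58 to -0.04, adjusted p = 0.821, limma). The difference was -0.76 without receptive day 7 pool 1. KRT15 differed by -1.36 (Bt.7346.1.S1_at, adjusted p = 0.821) and by -0.50 without that pool, and its other probe set differed by -1.24 (adjusted p = 0.821) and by -0.93 without it. Values of both groups overlapped for each. KRT17 differed by 0.06 (95% interval -0.84 to 0.97) and KRT14 by -0.23 (95% interval -0.74 to 0.27).

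Simple keratins on day 7 differed between receptivity groups by -0.05 for KRT8, 0.12 for KRT19, 0.19 for KRT18 and 0.22 for KRT7, with adjusted p-values between 0.865 and 0.971. On day 3, KRT5 (log2 difference -0.90, adjusted p = 0.952) and KRT8 (-0.14, adjusted p = 0.966) were lower in receptive pools without overlap, as were 6.24% of all probe sets. The larger actin distance of receptive pools moves with this comparison, and its part in these values was not tested.

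Receptive day 7 pool 1 was not low for every gene. Against the 5 other pools of day 7, KRT5 (6.15 against 8.5 to 10.28), KRT15 (7.00 against 9.32 to 10.56, and 4.54 against 5.08 to 7.05 on its other probe set) and KRT14 (5.87 against 6 to 6.71) were below their range, as were the simple keratins KRT8 (5.89 against 6.25 to 6.68) and, narrowly, KRT19 (12.21 against 12.24 to 12.95). KRT17 (7.96 against 7.19 to 8.10), KRT7, KRT18 and the other probe set of KRT5 lay within it. Of 13 measured genes of squamous differentiation, TGM3 and PADI1, enzymes of the cornified envelope and of keratin citrullination, and the peptidase KLK10 were above the range, TGM1 was below it (5.41 against 5.42 to 6.86) and 9 lay within it. Of 9 measured genes of hemidesmosome and basal cell, 0 were above the range and 3 were below, CDH3, NGFR and CAV1. The epidermal transglutaminase TGM3 had a signal of 7.63 in this pool, against 0.61 to 4.41 in the others. Of 13 neutrophil markers 6 were above the range, 2 were below, MPO (3.69 against 4 to 4.35) and LTF (13.81 against 13.89 to 13.95), and 5 lay within it. Above it were the calprotectin subunits S100A8 (12.40 against 9.19 to 10.92) and S100A9 (9.73 against 7.45 to 8.63) and the chemokine receptor CXCR1 (9.46 against 5 to 5.99), among others. Over all probe sets 12.5% were above the range and 22.5% below. The genes named for this pool were picked after their values in it were seen, and the part of neutrophils in the keratin values was not tested.

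The other keratins on the array were 10 genes (KRT3, KRT4, KRT6B, KRT10, KRT20, KRT23, KRT25, KRT76, KRT78 and KRT79) on 16 probe sets. Taking for each gene the probe set of the highest mean signal, 0 of 10 passed from day 3 to day 7 by limma. In that comparison 14.2% of all probe sets passed. The median log2 change of the 10 genes was -0.17. Over their 16 probe sets, 3 had an unadjusted p under 0.05, as did 7388 of all 24016. As higher 1 of the 16 passed, where 4.76% of all probe sets did. The called one was the dimmer probe set of KRT4, a type II keratin of mucosal squamous epithelium (Bt.22992.2.S1_at). It had signals of 2.92, 1.94 and 2.02 in non-receptive day 3, 2.19, 3.06 and 2.69 in receptive day 3, 3.81, 3.6 and 3.6 in non-receptive day 7 and 3.42, 3.15 and 3.68 in receptive day 7. The days did not overlap, and the log2 change was 1.07 ± 0.20 (SE, adjusted p = 0.00982, limma). Its brighter probe set (Bt.22992.1.A1_at) had a log2 change of 0.03 (adjusted p = 0.901), so the probe sets of KRT4 disagreed. KRT6B, a type II keratin known to pair with KRT17 and its close relatives in activated epithelium, had a change of -0.26 (adjusted p = 0.313), and KRT10 of suprabasal epidermis one of 0.30 (unadjusted p = 0.0357, adjusted p = 0.133). KRT23 had changes of 0.28 and 0.51 on its probe sets (adjusted p = 0.483 and 0.121). The other keratins were not tested against the basal ones.

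Genes that accompany keratins in stratified epithelium were followed as lists. Of the squamous list of desmosome and cornified envelope genes, 13 of 32 were measured, of which 3 rose and 1 fell by day 7 (limma, averaged over receptivity groups), with a median log2 change of 0.30. Among all probe sets 4.76% rose and 9.44% fell. TGM1, which cross-links the cornified envelope, rose by 0.98 (adjusted p = 0.0327), PADI1 by 1.28 (adjusted p = 0.0348) and FABP5, a fatty acid binding protein of keratinocytes, by 0.91 (adjusted p = 0.0374). KLK10 fell by 2.17 (adjusted p = 0.0071). The desmosomal genes PKP1 (0.42), PKP3 (0.11), JUP (-0.06), DSG1 (0.09), DSC1 (0.66) and DSC3 (-0.14) did not pass.

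Of the hemidesmosome and basal cell list, 9 of 17 were measured, and CAV1, the coat protein of caveolae, rose by 0.54 (adjusted p = 0.0489) while P-cadherin (CDH3) fell by 0.54 (adjusted p = 0.0227). The hemidesmosomal genes ITGB4 (log2 change 0.67, adjusted p = 0.0984) and COL17A1 (0.24, adjusted p = 0.531) did not pass, nor did the nerve growth factor receptor NGFR (0.07). The median log2 change of that list was 0.20. Its counts of 1 higher and 1 lower stand beside 4.76% and 9.44% of all probe sets. No probe set carried the symbol of TP63, the master regulator of basal cells.

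**Figure D5:**
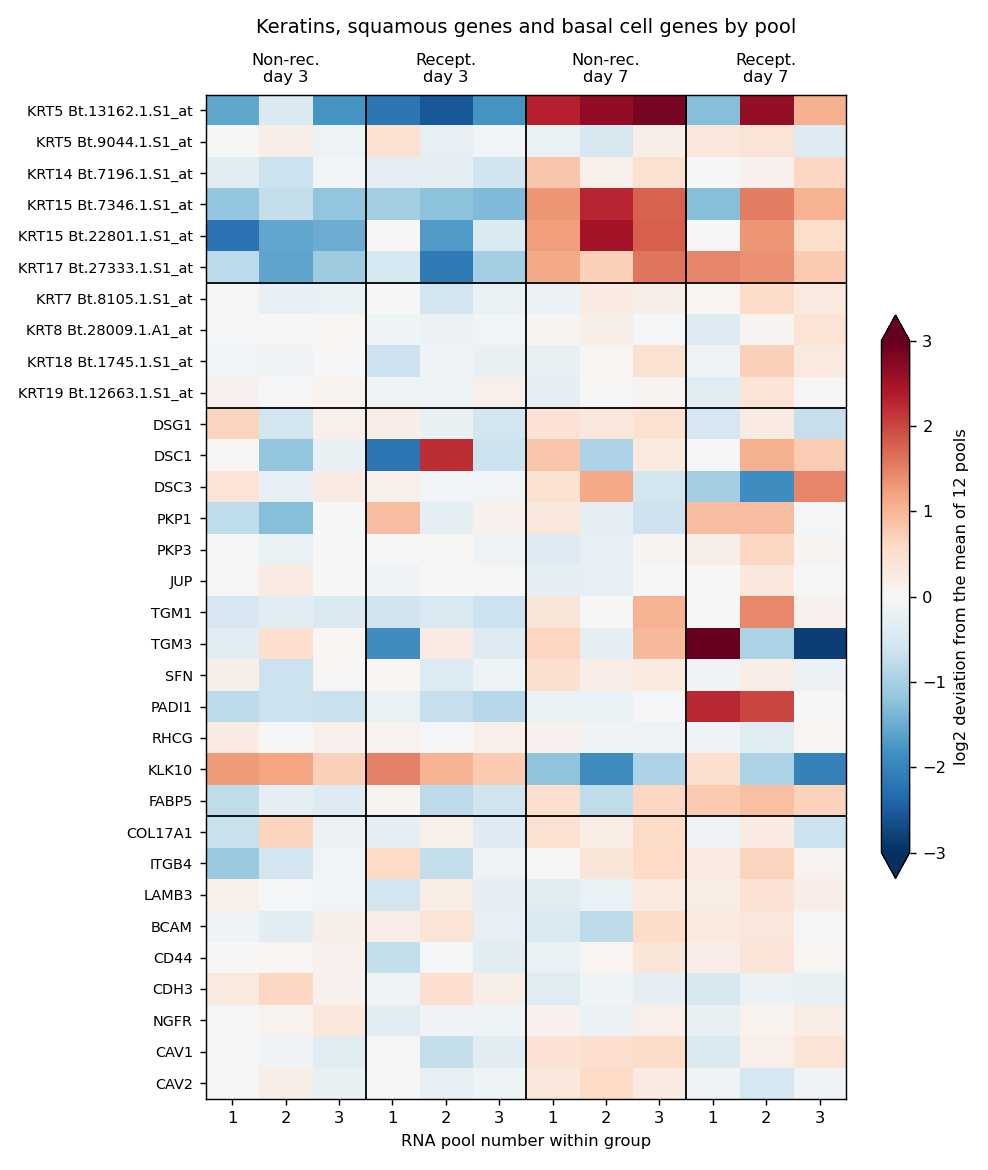
Log2 deviation of each probe set from its mean over the 12 pools (colour, capped at the ends of the bar), with pools as columns by group and rows for the 10 keratin probe sets, 13 genes of desmosome and cornified envelope and 9 of hemidesmosome and basal cell. The first KRT5 probe set, KRT15 and KRT17 are mostly negative on day 3 and positive on day 7, except that KRT5 and KRT15 are negative or near 0 in receptive day 7 pool 1, where TGM3 (7.63) and PADI1 (7.87) are at their highest.

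Regulators of keratin genes were measured for 16 of 25 listed, of which KLF4, a factor of barrier differentiation, rose by 0.39 (adjusted p = 0.0464, limma) and the AP-1 subunit JUN fell by 0.90 (adjusted p = 0.00266). The AP-1 subunit FOSL1 (log2 change 0.72, adjusted p = 0.0573) and CEBPA (1.15, adjusted p = 0.0672) did not pass, and TFAP2A, an activator of basal keratin genes, had a change of 0.47 (adjusted p = 0.283). The list median was 0.26. Of 18 measured genes of simple and glandular epithelium 1 rose and 0 fell, with a list median of 0.14. The riser was the tight junction protein TJP3 (0.66, adjusted p = 0.00707), while CLDN7 (-0.32, adjusted p = 0.0871), RAB25 (0.51, adjusted p = 0.101) and E-cadherin, CDH1 (-0.22, adjusted p = 0.151), did not pass. Other intermediate filaments and keratin partners had 3 of 12 lower and 0 higher, the lamin LMNB1 (-1.36, adjusted p = 0.00753), nestin, NES (-0.40, adjusted p = 0.0319), and the keratin-binding PNN (-0.36, adjusted p = 0.0334), with a list median of -0.05. These day counts stand beside 4.76% of all probe sets passing as higher and 9.44% as lower. Between receptivity groups on day 7, 0 genes of these 5 lists passed, as did 0% of all probe sets.

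Markers of other cell types moved between the same days as the basal keratins. Among all probe sets 4.76% rose and 9.44% fell between these days. Of 13 neutrophil markers 5 rose and 0 fell, led by S100A12 (log2 change 3.70, adjusted p = 0.0039), MMP9 (4.79, adjusted p = 0.00426, with pools of day 3 at the floor of 0) and S100A8 (3.33, adjusted p = 0.00591), by limma. Their summed log2 level was between 13.9 and 14 in the groups of day 3 and between 14.2 and 14.8 in those of day 7. On day 3 that sum was mostly the signal of LTF, which did not pass and had means of 13.91 on day 3 and 13.90 on day 7. Of 17 stromal fibroblast markers 7 fell and 0 rose, among them FBLN1 (-1.55, adjusted p = 0.003) and COL3A1 (-1.73, adjusted p = 0.0297), with a summed level of 12.5 to 14.9 in non-receptive day 3, 13.8 to 13.9 in receptive day 3, 12.1 to 13.3 in non-receptive day 7 and 12 to 12.8 in receptive day 7. Endothelial markers fell in 4 of 11, such as EMCN (-1.70, adjusted p = 0.0148), with sums of 9.3 to 11 and 10.1 to 10.3 in non-receptive and receptive day 3 and of 8.89 to 9.4 and 9.13 to 9.42 on day 7. Smooth muscle markers had 1 of 10 higher (SMTN) and 1 lower (MYLK), and erythroid markers 1 of 7 higher (HBB) and 1 lower (ALAS2). Ciliated epithelium markers had 1 of 4 lower, the tubulin TUBA1A (-0.94, adjusted p = 0.00549, limma), while CCDC39, SPAG6 and TEKT1 did not pass. Their summed level was 12.5 to 12.8 in the groups of day 3 and 11.1 to 12.1 in those of day 7. Most of it was TUBA1A, with means of 12.39 on day 3 and 11.45 on day 7. No marker of these 6 lists was at 0 in all pools of a group. The part of these shifts in the keratin values was not tested.

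How the keratins varied between pools of the same group is given as the correlation of deviations from the group means over the 12 arrays, as a description. KRT5 and KRT15 (Bt.7346.1.S1_at) had an r of 0.91, which was 0.62 without receptive day 7 pool 1. KRT18 and KRT19 had an r of 0.83, and 0.72 without that pool, and KRT7 and KRT19 one of 0.72, and 0.64 without it. KRT5 and KRT14, partners in a filament, had an r of -0.09, which was -0.80 without that pool, and KRT8 and KRT18 one of 0.30, which was -0.57 without it. KRT8 was read here by its named probe set (Bt.28009.1.A1_at), with a mean signal of 6.28. The unnamed probe set of the same stem had a mean of 10.72, and which of them reads KRT8 was not tested. Outside the keratins, the named genes most like KRT5 among 7526 candidate probe sets were CDK18 (r = 0.91), POLDIP2 (0.90), AP4M1 (0.90), RGP1 (0.90) and CDKN1C (0.89), each between 0.63 and 0.77 without receptive day 7 pool 1. This likeness is within groups only, and none of these genes passed from day 3 to day 7. With group means left in, their r with KRT5 ran from -0.20 (CDK18) to 0.86 (POLDIP2). Those most like KRT8 were TPD52L1, C16H1orf174, GCN1, MACROD1 and ING4, with r of 0.94 for each, and between 0.74 and 0.95 without that pool. The points share arrays, groups and that 1 pool.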

How the data were processed

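The authors deposited 1 table of log2 signals of an Affymetrix bovine array, with 24128 probe sets on 12 arrays. Per the labels, RNA extracted with TRI Reagent was DNase-treated, column-cleaned and turned into biotin-labelled cRNA. The submitters' processing notes list Affymetrix Expression Console, PLIER and GCOS 1.1.1, with no role or order. How arrays were scaled was not given in the sources used here and could move all changes by a constant. Values had 2 decimals and a floor of 0, which no keratin described as basal or simple reached. The number of arrays limits the precision.

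The 112 control probe sets were left out. Genes were named from the platform annotation, in which 13292 of the tested probe sets carried 1 symbol, 86 several and 10638 none. Means of the 4 groups were fitted with limma 3.58.1 (lmFit, eBayes, R 4.3.3), two-sided, with Benjamini-Hochberg adjustment over 24016 probe sets. A relative fit first subtracted the mean of the simple keratins from each array. "Passed", "rose" and "fell" mean an adjusted p under 0.05, and values do not overlap where all of 1 group exceed all of the other. A gene with several probe sets is represented by that of the highest mean.

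Named were all members, other keratins that passed, up to 4 genes per list with the smallest p in the averaged day comparison, and the 5 genes most correlated with KRT5 and with KRT8. Further genes named in the text were chosen after their values were seen. The members and lists were chosen with earlier results of these data known. The model was also run on simulated data, with independent noise for each probe set and no pool that stands apart. That run does not cover such a pool, and no result given here rests on it. No sequence is printed: protein and promoter descriptions that had been planned were not made. Alternatives were other scalings, filters on low signal and on the floor, other variance models, array weights, the pool number as a block, fits of the compared groups alone and leaving out each pool.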

Additional observations from a re-analysis of the deposited data

How the results depend on the processing

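For the averaged day comparison, 5 keratin probe sets passed without each of the 12 pools in turn, and 5 or 6 under the 7 other alternatives. The 5 called basal probe sets passed under all alternatives that held them, with largest adjusted p-values of 0.0199 for KRT5, 0.0417 for KRT14, 0.0297 and 0.0142 for KRT15 and 0.00817 for KRT17 (limma), while KRT7 passed under 2 of 19. In the fit relative to the simple keratins, 4 passed under every alternative except array weights, where KRT14 was added as higher and the second KRT5 probe set as lower, to make 6. The alternative with the unnamed probe set in place of KRT8 was chosen after seeing the data. In receptive endometrium the count of 1 became 2 with a mean signal of at least 5 and 2 with array weights, 0 with only the compared groups, and 0 to 2 without single pools. In non-receptive endometrium the count of 4 was 0 to 4 without single pools. The pool number was checked as a pairing: deviations of pools with the same number correlated between -0.18 and 0.14, over 0.1 in 3 of 18 pairs. Those of different numbers correlated between -0.15 and 0.15, over 0.1 in 5 of 36 pairs. This showed no pairing by number, but with 3 pools a group it cannot exclude that pools share animals. With the pool number as a replicate block, 2 passed in non-receptive endometrium, and no other count moved by over 1.5 times. Receptivity and interaction counts were 0 under all alternatives run. The cause was not tested for these shifts.

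Signs turned only for differences that did not pass. The second KRT5 probe set changed with the day by 0.013 after quantile normalization and 0.014 after median centring, and by -0.136 to 0.075 without single pools. KRT19 changed by 0.036 after median centring and by -0.121 to 0.064 without single pools. Receptivity differences on day 7 without single pools were -0.16 to 0.295 for KRT17, -0.235 to 0.16 for KRT8, -0.022 to 0.403 for KRT18 and -0.068 to 0.302 for KRT19. The other probe set gave KRT5 means of 6.57 in receptive day 3 and 6.36 in non-receptive day 7, and KRT15 means of 2.80, 3.85, 6.40 and 5.16 in non-receptive day 3, receptive day 3, non-receptive day 7 and receptive day 7, a different scale per probe set. With 3 pools a group, the 95% interval of a KRT5 receptivity difference spans over 3 log2 units.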
